A study of Mus musculus with 6 samples.

Results

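The inhibin and activin system was described in whole mouse testis by 9 genes of 38715 in the deposited table, and all 9 were present there. They are the inhibin and activin subunit genes Inha, Inhba and Inhbb, the activin type I receptor genes Acvr1 and Acvr1b, the type II receptor genes Acvr2a and Acvr2b, and the genes of the activin-binding follistatins, Fst and Fstl3. The genes were chosen by symbol and not by their values. RNA was sequenced from 6 testis libraries, 3 titled Control and 3 titled Middle. Middle was read as the group exposed to MES, the agent in the series title, since no title names another group. Both groups are labelled as mouse testis. The sources used here give no genotype, strain, age, dose or time of exposure, and do not say whether a library is 1 animal. The p-values therefore measure only the spread between these libraries, which may be technical.

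Inhibins and activins are hormones of the TGF-β family that share subunits. An activin is a dimer of β subunits, encoded by Inhba and Inhbb, while an inhibin pairs a β subunit with the α subunit encoded by Inha, so that α subunits draw β subunits away from activin. Activin binds a type II receptor, which recruits and activates a type I receptor that phosphorylates Smad2 and Smad3, the same mediators that TGF-β1 uses. Follistatin and its relative FSTL3 bind activin and keep it from its receptors. In the testis, Sertoli cells secrete inhibin B, a dimer of the α and βB subunits, which restrains the release of follicle-stimulating hormone by the pituitary.

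The values were RPKM, read numbers divided by gene length and by the size of the library, so levels can be compared between genes per length. Depth was 38820385 to 58389391 reads on genes per library. All 13 Sertoli cell markers and all 9 Leydig cell markers examined were above 0 in every library, as were those of germ cells. From 30702 to 32249 of the 38715 genes were above 0 in a library, so this alone does not show that a cell type was present. Of the 4 epididymis markers in the table, Crisp1 and Adam7 were at a mean of at most 0.02 RPKM in both groups and Defb20 at means of 0.129 in Control and 0.0839 in Middle, while Rnase10 was at 1.36 to 2.38 RPKM over the libraries. The 4 summed to 1.46 to 1.95 RPKM in Control and 1.52 to 2.45 in Middle. Summed round spermatid markers (7 genes) were at 631 to 673 RPKM in Control and 511 to 563 in Middle. Tssk2 was the largest part of that sum, at 296 to 349 RPKM in Control and 237 to 281 in Middle. Tssk2, Spaca7, Tssk1 and Catsper4 were lower in every Middle library, while Acrv1, Spaca1 and Acr overlapped, with the Acr mean higher in Middle. Summed endothelial markers (5 genes) were at 1.64 to 1.999 in Control and 2.09 to 2.85 in Middle. Among these only Cldn5 was without overlap when taken singly. Summed spermatogonium markers (7 genes) did not overlap either, at 13.2 to 15.2 RPKM in Control and 16.8 to 20.9 in Middle. Stra8, Esx1 and Sall4 were higher in every Middle library and Gfra1 lower, while Zbtb16, Kit and Nanos3 overlapped between the groups. The sums of elongating spermatid, spermatocyte, peritubular myoid, Sertoli, Leydig, macrophage and erythrocyte markers overlapped between the groups. Over the whole table, unfiltered, 16.6% of genes did not overlap. In bulk tissue, fewer cells of a type and less RNA per cell cannot be told apart. The rank correlation of transcript GC content with the deviation of a library from the average library was -0.29 to -0.22 in Control and -0.07 to 0.45 in Middle. The groups did not overlap in this measure, so its part and that of the exposure cannot be told apart.

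Mean levels of the 9 genes spanned 260.5-fold. Inha stood first at a mean of 20.9 RPKM over all 6 libraries, and Inhbb second at 6.03 RPKM, 3.46 times lower. Fstl3 (1.96 RPKM), Acvr1b (1.79) and Acvr2a (1.56) formed a middle tier. Acvr2b (0.428) and Acvr1 (0.408) lay lower, followed by Inhba (0.131) and Fst (0.0801). The genes tested were the 15040 whose mean reached 1 RPKM in Control or in Middle. Among them, Inha lay at the 79.4th percentile of level and Inhbb at the 54.4th. The 4 genes Acvr1, Acvr2b, Inhba and Fst were under that filter. Most steps in this order held in 6 of 6 libraries. The exceptions were Fstl3 over Acvr1b (4 of 6), Acvr2b over Acvr1 (3 of 6) and Inhba over Fst (5 of 6), neighbours whose ranges overlapped.

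**Figure D1:**
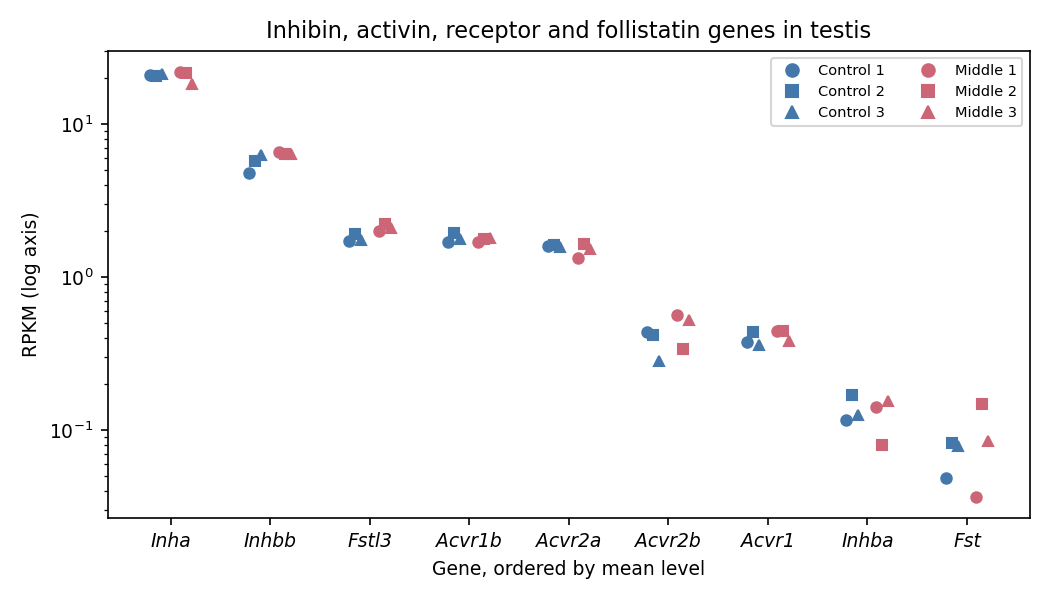
RPKM of each of the 9 genes in each library (log axis), ordered by mean level, with Control in blue and Middle in red and the marker shape giving the replicate number. Inha and Inhbb stand above the others in all 6 libraries, and Inhba and Fst are the lowest.

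No member passed the test between the groups. The test was limma on log2(RPKM + 1) across all genes, two-sided, and a gene passed at a Benjamini-Hochberg adjusted p under 0.05. Of the 5 members tested 0 passed, against 8 of 15040 genes, or 0.0532%, and 0 of the 5 had an unadjusted p under 0.05, against 20.7% of all genes tested. With limma-voom on reads recovered from the RPKM values, which took in all 9 members, 0 passed either, against 0.155% of all genes. The median difference of the 5 tested members was -0.02 on the log2(RPKM + 1) scale, and that of all genes tested 0.03. On this scale 2 members lay above 0 and 3 below, and 55.9% of all genes tested lay above 0. Inhbb and Fstl3 were the members whose libraries did not overlap between groups, both higher in Middle. That is 2 of 9, or 2 of the 5 tested, where 29.3% of all genes tested did not overlap in either direction and 17.9% lay higher in Middle without overlap. Over the whole table, unfiltered, 16.6% of genes did not overlap.

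**Figure D2:**
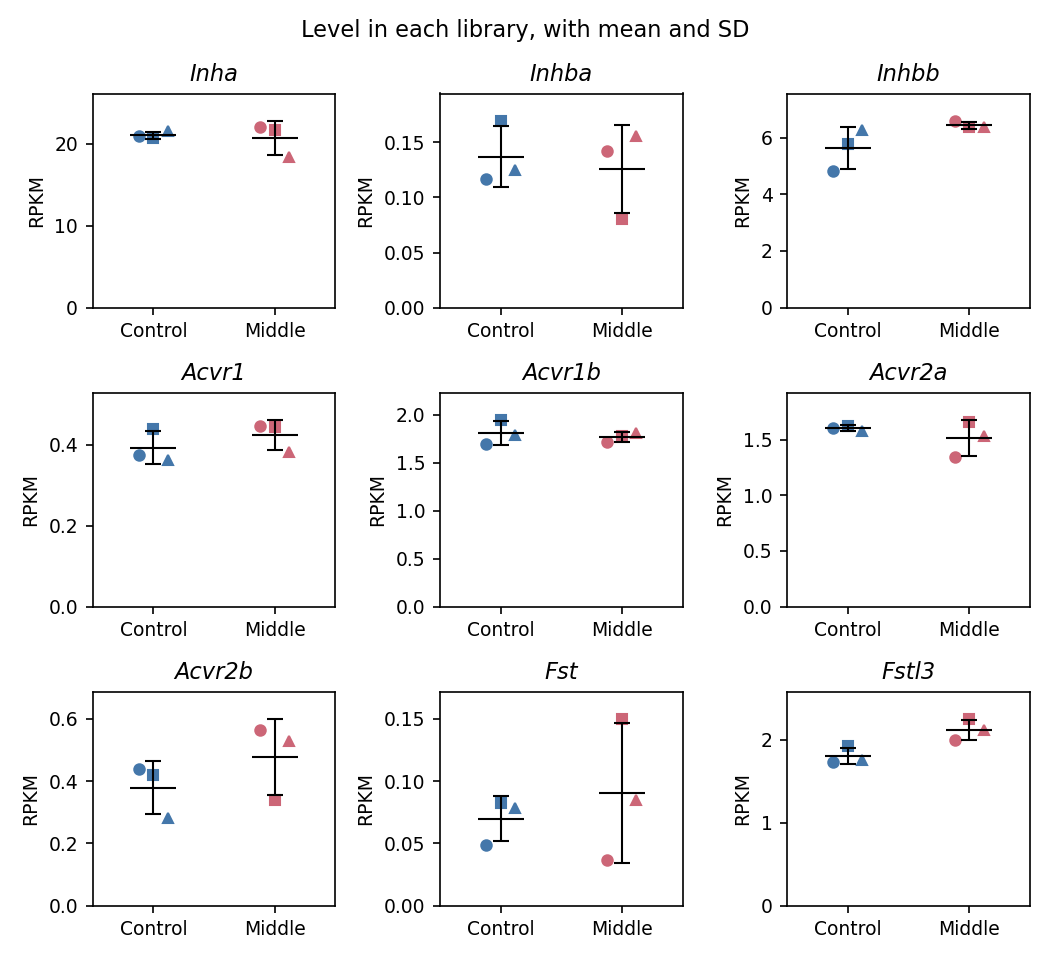
RPKM of each gene in each library, 1 panel per gene with axes from 0. Points are libraries (circle, square and triangle for replicates 1, 2 and 3), and the bars give the mean and SD of 3 libraries. The Middle points of Inhbb and Fstl3 lie above all Control points, and the groups overlap in the other panels.

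Inhbb (chromosome 1, 119343195 to 119349978, minus strand, GRCm39), the βB subunit of inhibin B and activin B, was at 4.83, 5.78 and 6.27 RPKM in Control replicates 1, 2 and 3 and at 6.57, 6.36 and 6.36 in Middle replicates 1, 2 and 3. The Middle libraries were close together and all above Control, while the Control libraries spread widely, with replicate 1 the lowest. The Control mean was 5.63 ± 0.73 RPKM and the Middle mean 6.43 ± 0.12 (SD, n = 3 each), a ratio of 1.14. The log2 difference was 0.17 (SE 0.09, 95% interval -0.04 to 0.38) and did not pass (adjusted p = 0.303, limma). Without Control replicate 1 it was 0.08, and after removal of the trend of each library on GC content 0.07 (adjusted p = 0.61, limma). Over all alternatives run, the adjusted p of Inhbb was 0.288 to 0.675 and its difference 0.07 to 0.24 (limma or limma-voom). These take in other pseudocounts and limma-voom, which are on other scales. With 1 library left out, on the scale of the main fit, the difference was 0.08 to 0.24. The longest Inhbb transcript has a GC content of 60.9%, above 96.6% of tested genes with a GC value. At that content the trend fitted to these libraries differed by 0.10 between the groups on the log2 scale, which is the part removed above.

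Inhbb is a product of Sertoli cells, so its level was also set against their markers. Summed over the 13 markers, these were at 184 to 211 RPKM in Control and 197 to 246 in Middle. Of the 12 that were tested 10 lay above 0, with a median of 0.16. None passed by limma or limma-voom (0 of 12 and 0 of 13), and 5 of the 12 had an unadjusted p under 0.05, against 20.7% of all genes tested. Sox9, Rhox8 and Gstm6 were the 3 of 12 that did not overlap, all higher in Middle, against 29.3% of all genes tested. The 2 below 0 were Cst9 (-0.51), the marker farthest from 0 in this list, and Cst12 (-0.39). Rhox8 (0.46) lay farthest above 0. Relative to the mean of the 13 markers on the log2(RPKM + 1) scale, Inhbb was at -0.45 ± 0.14 in Control against -0.36 ± 0.07 in Middle (SD, n = 3 each). That difference of 0.08 was within the spread (exact permutation p = 0.5, two-sided), and 3 libraries against 3 cannot give a p below 0.1. It was 0.0045 without Control replicate 1, 0.14 without Control replicate 2 and 0.04 without Middle replicate 2. With the GC trend removed it was 0.02, and set against the median of the markers in place of their mean it was 0.22.

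Inha (chromosome 1, 75483721 to 75487010, plus strand), the α subunit of all inhibins, was at 20.9, 20.7 and 21.5 RPKM in Control replicates 1 to 3 and at 22.02, 21.7 and 18.4 in Middle replicates 1 to 3. Middle replicates 1 and 2 lay above every Control library and Middle replicate 3 below every one. The Control mean was 21.04 ± 0.42 RPKM and the Middle mean 20.7 ± 2.02 (SD, n = 3 each), so the spread within Middle exceeded the difference. The log2 difference of -0.03 (SE 0.08, 95% interval -0.21 to 0.16; adjusted p = 0.861, limma) turned to 0.05 without Middle replicate 3. Leydig cells also make the α subunit, and their 9 markers summed to 303 RPKM in Middle replicate 3 against 336 and 331 in Middle replicates 1 and 2, with 274 to 329 in Control. Insl3 made up most of that sum, and the other 8 summed to 63.4 RPKM in Middle replicate 3, below the 77.2 to 93.2 of Control and the 102 and 94.1 of Middle replicates 1 and 2. In Middle replicate 3, Star, Cyp11a1, Cyp17a1, Hsd3b6, Hsd17b3 and Lhcgr, 6 of the 9, were below every Control library. Insl3 (239.9 RPKM) and Nr5a1 (4.05) were above every Control library there, and Hsd3b1 (9.88) lay within the Control range. The share over all genes was not counted for this library, so no result about Leydig cells is read from the 6 of 9. Lhcgr was at 0.169 RPKM there against 0.170 in Control replicate 2, and Star was below every Control library in Middle replicates 1 and 2 too. The 13 Sertoli markers summed to 223 RPKM in Middle replicate 3, between Middle replicate 2 (197) and Middle replicate 1 (246). The part of either cell type in the low value was not tested. Relative to the Sertoli markers Inha was at 1.29 ± 0.06 in Control against 1.18 ± 0.18 in Middle on the log2(RPKM + 1) scale (SD, n = 3 each; exact permutation p = 0.5). The difference of -0.11 was -0.02 without Middle replicate 3, -0.19 without Middle replicate 2 and -0.19 with the GC trend removed, and it turned to 0.02 against the median of the markers.

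Inhba (chromosome 13, 16186436 to 16206206, plus strand), the βA subunit of activin A and inhibin A, was scarce. It was at 0.117, 0.169 and 0.125 RPKM in Control replicates 1 to 3 and at 0.142, 0.0805 and 0.155 in Middle replicates 1 to 3. These values rest on 24 to 63 reads per library, where 6 reads (3 fragments of 2 mates) is the limit that a count of 0 allows, counting error only. The groups overlapped, with Middle replicate 2 the lowest and Control replicate 2 the highest. Fitted without the filter, the log2 difference was -0.01 (SE 0.04, 95% interval -0.10 to 0.07; adjusted p = 0.891, limma), on a scale that shrinks changes of genes this low. With limma-voom it was -0.17.

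The α subunit transcript exceeded those of the β subunits per length in every library. The ratio of Inha to the sum of Inhba and Inhbb was 4.23, 3.48 and 3.36 in Control replicates 1 to 3 and 3.28, 3.37 and 2.82 in Middle replicates 1 to 3. Middle replicate 3 was the lowest and Control replicate 1 the highest, and the groups overlapped by Control replicate 3 and Middle replicate 2. On the log2 scale the ratio was at 1.88 ± 0.18 in Control against 1.65 ± 0.14 in Middle (SD, n = 3 each), a difference of -0.22 (exact permutation p = 0.2, two-sided). It was -0.12 without Control replicate 1 and -0.14 without Middle replicate 3. A ratio within a library does not depend on scaling between libraries. Among the β subunits βB prevailed: Inhba was between 0.0127 and 0.0292 times the level of Inhbb, with a log2 difference between groups of -0.36 (exact permutation p = 0.5). Without Middle replicate 2, the library with the lowest ratio, it was -0.07, and leaving out Control replicate 2 gave -0.22 and Middle replicate 3 -0.55. Removal of the GC trend gave -0.18.

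**Figure D3:**
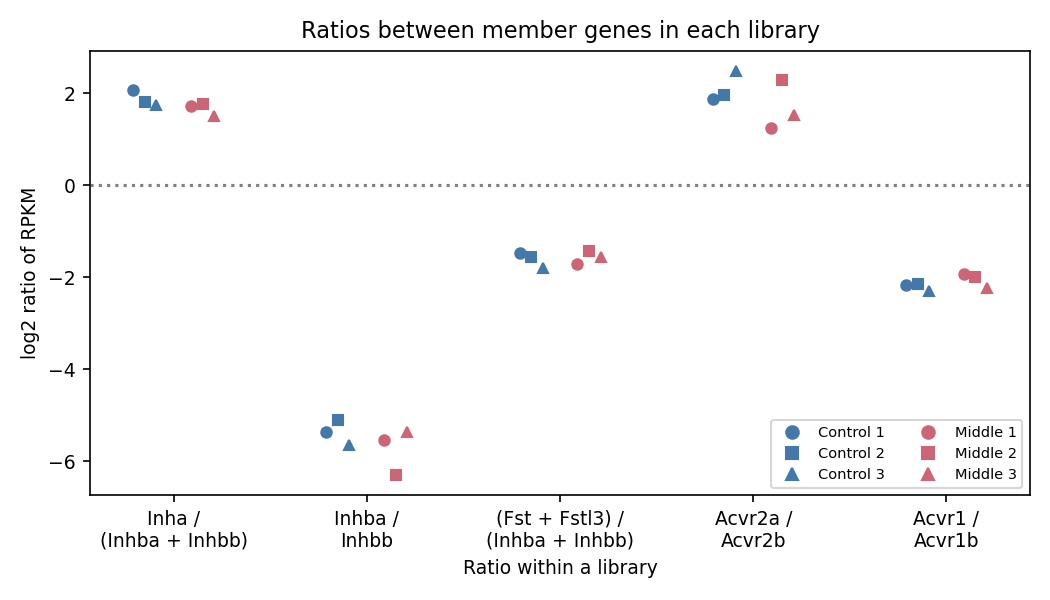
Log2 ratios of RPKM between members within each library (points; colours and shapes as for the levels), with equal levels at 0. Inha exceeds the β subunits, and Inhba and Acvr1 lie below Inhbb and Acvr1b in all 6 libraries; Control and Middle points overlap in each of the 5 ratios.

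Of the type II receptors, which bind the ligand first, Acvr2a (chromosome 2, 48704121 to 48793281, plus strand) was the more abundant. It was at 1.60, 1.63 and 1.58 RPKM in Control replicates 1 to 3 and at 1.34, 1.66 and 1.53 in Middle replicates 1 to 3. Control was tight and Middle replicate 1 was the lowest. The Control mean was 1.602 ± 0.025 RPKM and the Middle mean 1.51 ± 0.16 (SD, n = 3 each), with a log2 difference of -0.05 (SE 0.08, 95% interval -0.23 to 0.13; adjusted p = 0.698, limma). With the GC trend removed the difference was 0.05, and the transcript is poor in GC (39.9%, above 5.61% of tested genes). Acvr2a shares 446 exon bases, 7.84% of its length, with Orc4 on the other strand, which was at 1.36 RPKM in both groups on average.

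Acvr2b (chromosome 9, 119231184 to 119264061, plus strand), the other type II receptor, was at 0.438, 0.419 and 0.282 RPKM in Control replicates 1 to 3 and at 0.565, 0.338 and 0.528 in Middle replicates 1 to 3, from 43 to 117 reads. The groups overlapped, since Middle replicate 2 lay below Control replicates 1 and 2. Its mean was 1.26 times higher in Middle, within the spread of the libraries (log2 difference 0.10, SE 0.08, 95% interval -0.11 to 0.30, fitted without the filter; adjusted p = 0.689, limma). That scale shrinks changes of genes this low, and with limma-voom the difference was 0.27 (adjusted p = 0.596, limma-voom). Acvr2a was between 2.38 and 5.59 times the level of Acvr2b. The log2 ratio was at 2.10 ± 0.33 in Control against 1.69 ± 0.54 in Middle (SD, n = 3 each; exact permutation p = 0.4). The difference of -0.41 was -0.71 without Middle replicate 2, -0.22 without Control replicate 3, -0.19 without Middle replicate 1 and -0.24 with the GC trend removed.

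Of the type I receptors, Acvr1b (chromosome 15, 101071948 to 101111565, plus strand), the kinase that passes the activin signal to Smad2 and Smad3, was at 1.70, 1.94 and 1.78 RPKM in Control replicates 1 to 3 and at 1.71, 1.78 and 1.81 in Middle replicates 1 to 3. The Middle libraries lay inside the range of Control. The log2 difference was -0.02 (SE 0.07, 95% interval -0.19 to 0.15; adjusted p = 0.879, limma), and it was 0.01 without Control replicate 2. Acvr1 (chromosome 2, 58278656 to 58457169, minus strand), a type I receptor best known for BMP signals, was at 0.376, 0.440 and 0.363 RPKM in Control replicates 1 to 3 and at 0.446, 0.444 and 0.382 in Middle replicates 1 to 3. The groups overlapped (log2 difference 0.03, SE 0.05, 95% interval -0.09 to 0.16, fitted without the filter; adjusted p = 0.825, limma). With limma-voom the difference of Acvr1 was 0.07 (adjusted p = 0.876, limma-voom). Acvr1 was between 0.203 and 0.261 times the level of Acvr1b, and the log2 ratio differed by 0.14 between groups (exact permutation p = 0.3). It was 0.08 without Middle replicate 1 and 0.23 without Middle replicate 3.

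Fstl3 (chromosome 10, 79613106 to 79618464, plus strand), the more abundant of the activin-binding proteins here, was at 1.74, 1.92 and 1.76 RPKM in Control replicates 1 to 3 and at 1.995, 2.24 and 2.12 in Middle replicates 1 to 3. Each Middle library lay above each Control library. The Control mean was 1.81 ± 0.10 RPKM and the Middle mean 2.12 ± 0.12 (SD, n = 3 each), a ratio of 1.17. The log2 difference of 0.15 (SE 0.07, 95% interval -0.02 to 0.32) did not pass (adjusted p = 0.267, limma), and with the GC trend removed it was 0.07 (adjusted p = 0.636, limma). Over all alternatives run, the adjusted p of Fstl3 was 0.15 to 0.666 and its difference 0.07 to 0.23 (limma or limma-voom). These take in other pseudocounts and limma-voom, which are on other scales, and the 0.23 came from a pseudocount of 0.01. With 1 library left out, on the scale of the main fit, the difference was 0.12 to 0.18. Its transcript has a GC content of 57.1%, above 87.8% of tested genes. At that content the trend fitted to these libraries differed by 0.08 between the groups, which is the part removed above.

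Fstl3 shares 1157 exon bases, 47.3% of its length, with Prss57, a serine protease gene on the other strand. In the table, Mir451a and Mir451b lie on opposite strands at identical positions and held the same 16 reads each, so strand was taken as ignored, and reads in the shared bases may be counted for both genes. Prss57 held 138, 189 and 123 reads in Control replicates 1 to 3 and 142, 139 and 198 in Middle replicates 1 to 3, where Fstl3 held 227, 274 and 167 and 231, 256 and 292. Prss57 did not pass the test (log2 difference 0.04, SE 0.08; adjusted p = 0.782, limma). If every Prss57 read were also counted for Fstl3, the reads left for Fstl3 alone, scaled to library size, would be 1.66, 1.46 and 1.13 CPM in Control replicates 1 to 3 and 1.88, 2.51 and 1.67 in Middle replicates 1 to 3. Under that reading Control replicate 1 and Middle replicate 3 would be almost level.

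Fst (chromosome 13, 114588826 to 114595487, minus strand), the gene of follistatin itself, was the lowest of the 9. It was at 0.0489, 0.0821 and 0.0786 RPKM in Control replicates 1 to 3 and at 0.0368, 0.149 and 0.0849 in Middle replicates 1 to 3, from 8 to 32 reads. Middle held both the lowest and the highest library, and no difference was detectable at this depth (log2 difference 0.03, SE 0.04, 95% interval -0.07 to 0.12, fitted without the filter; adjusted p = 0.814, limma). That scale shrinks changes of genes this low, and with limma-voom the difference was 0.18 (adjusted p = 0.878, limma-voom). The sum of Fst and Fstl3 was 0.287 to 0.371 times the sum of Inhba and Inhbb over the 6 libraries. The log2 ratio was at -1.61 ± 0.17 in Control against -1.57 ± 0.15 in Middle (SD, n = 3 each; exact permutation p = 0.7), and the libraries of the groups overlapped.

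**Figure D4:**
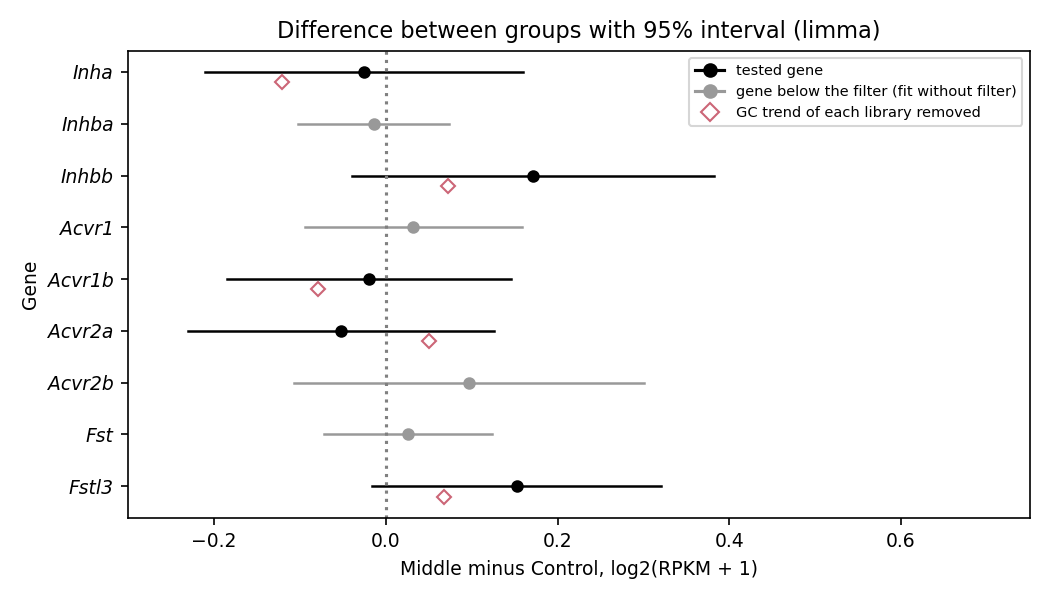
Difference between the groups for each gene on the log2(RPKM + 1) scale (filled points) with its 95% interval from limma, in black for the 5 tested genes and in grey for the 4 below the filter, fitted without it. Open diamonds give the value after removal of the GC trend. This scale shrinks the differences and intervals of low genes, so a narrow grey interval does not mean a more exact measurement. Every interval includes 0, and the diamonds of Inhbb and Fstl3 lie nearer to 0 than the filled points, at 0.07 each.

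The promoters of Inhbb and Fstl3 are shown because these were the members without overlap between the groups, and because the series title names GATA2 and TGF-β1. The sequences come from RefSeq (GRCm38.p6, not the build of the expression table) and cover the 250 bases before the start site, 5′ to 3′ on the strand of the gene. Inhbb lies at chr1:119422249-119422498 on the minus strand and Fstl3 at chr10:79777024-79777273 on the plus strand. Capitals mark GATA motifs (AGATAA or AGATAG or TGATAA or TGATAG), Smad boxes (CAGAC) and GC boxes (GGGCGG), each on either strand.
Inhbb: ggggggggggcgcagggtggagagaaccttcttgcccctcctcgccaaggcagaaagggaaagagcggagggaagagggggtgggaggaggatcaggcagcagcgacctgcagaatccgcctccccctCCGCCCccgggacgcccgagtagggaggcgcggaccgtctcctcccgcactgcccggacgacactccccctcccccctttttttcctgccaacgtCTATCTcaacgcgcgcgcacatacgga
Fstl3: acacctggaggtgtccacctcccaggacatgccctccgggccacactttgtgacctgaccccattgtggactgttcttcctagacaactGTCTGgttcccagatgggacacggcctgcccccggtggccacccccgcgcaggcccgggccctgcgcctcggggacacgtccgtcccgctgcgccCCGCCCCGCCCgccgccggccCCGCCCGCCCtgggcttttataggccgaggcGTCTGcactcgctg

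The Inhbb window held 1 GATA motif, on the reverse strand and beginning 27 bases before the start site, and 1 GC box. It was the only one of the 8 member windows in the table with a GATA motif, and 26.5% of all 32851 windows held one. The Fstl3 window held 0 GATA motifs, 2 Smad boxes, which begin 161 and 14 bases before the start site, and 4 GC boxes. A Smad box was found in 4 of the 8 member windows and in 42.2% of all windows, and a GC box in 6 of 8 and in 32.7% of all windows. GC made up 68% of the Inhbb window and 71.2% of the Fstl3 window, against a median of 52.4% over all windows. Matches describe letters only, and no binding was measured. Fst is not in the table. The window of Inha shares 160 of its 250 bases with Inha exons in GENCODE M21 and is not shown.

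Around the members, 32 genes of the wider activin pathway had been listed with earlier results known. Of these 30 were in the table under the listed symbols and 9 were tested. Among the 9, 6 lay above 0 and 3 below, with a median of 0.02 against 0.03 for all genes tested, and 0 passed in either direction. Gdf9 and Amhr2 were the 2 of 9 with an unadjusted p under 0.05, a share near the 20.7% of all genes tested. With limma-voom 0 of the 26 it could fit passed, against 0.155% of all genes. Amhr2, the type II receptor for anti-Müllerian hormone, was above every member in every library. It was at 32.1, 33.0 and 32.6 RPKM in Control replicates 1 to 3 and 40.6, 35.1 and 35.04 in Middle replicates 1 to 3. All Middle libraries lay above Control, and the log2 difference was 0.17 (SE 0.07; adjusted p = 0.236, limma).

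Gdf9, a TGF-β family ligand best known from oocytes, had the largest difference among the 9. It was at 2.04, 1.93 and 0.621 RPKM in Control replicates 1 to 3 and at 0.499, 0.359 and 0.297 in Middle replicates 1 to 3. Each Middle library was lower than each Control library, but Control replicate 3 lay near Middle, so the Control spread was wide (1.53 ± 0.79 against 0.385 ± 0.104 RPKM, SD, n = 3 each). The log2 difference of -0.82 (SE 0.23) did not pass (adjusted p = 0.178, limma), and it was -1.11 without Control replicate 3.

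The other 4 named genes of the pathway overlapped between the groups. Foxh1, a partner of Smad2 and Smad4 on DNA, averaged 1.96 ± 0.18 RPKM in Control libraries and 2.32 ± 0.35 in Middle ones, and Bambi, a decoy receptor, 1.59 ± 0.11 and 1.78 ± 0.15 (SD, n = 3 each). Synj2bp, which binds type II activin receptors, was at 7.65 ± 0.57 and 6.91 ± 0.98 RPKM, and Smad4, the shared Smad, at 1.85 ± 0.05 and 1.98 ± 0.09 (SD, n = 3 each). Of these 4, 0 passed (adjusted p from 0.353 for Foxh1 to 0.583 for Smad4, limma).

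The other 21 pathway genes in the table were below the filter, among them Inhbe and Acvr1c, at means of at most 0.022 RPKM in either group, and the activin mediator Smad3 at 0.497 ± 0.157 in Control against 0.594 ± 0.073 in Middle (SD, n = 3 each). Among these 21, Furin and Acvrl1 were the 2 whose groups did not overlap, where 16.6% of the unfiltered table did not; they were named after their values were seen. Furin, a protease that cuts activin precursors, was at 0.554, 0.605 and 0.561 RPKM in Control replicates 1 to 3 and at 0.746, 0.789 and 0.819 in Middle replicates 1 to 3. Fitted without the filter, its log2 difference of 0.18 (SE 0.06) did not pass (adjusted p = 0.404, limma). Acvrl1, a type I receptor of endothelial cells, was at 0.351 ± 0.053 and 0.491 ± 0.022 RPKM (SD, n = 3 each; adjusted p = 0.431, limma, without the filter). The summed endothelial markers Pecam1, Cdh5, Kdr, Tek and Cldn5 did not overlap between the groups either. Taken singly, only Cldn5 was without overlap (at most 1.149 RPKM in Control, at least 1.151 in Middle). Pecam1, Cdh5, Kdr and Tek overlapped, and the Kdr mean was lower in Middle. The part of these markers in the Acvrl1 value was not tested.

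Genes that respond to activin and TGF-β were listed as 8, of which 4 were tested. Of these 3 lay above 0 and 1 below, with a median of 0.11. None passed by limma or limma-voom (0 of 4 and 0 of 8), and Ccn2 was the 1 of 4 with an unadjusted p under 0.05, against 20.7% of all genes tested. Ccn2, a matrix protein, was at 5.33, 5.21 and 5.04 RPKM in Control replicates 1 to 3 and at 6.38, 6.13 and 5.52 in Middle replicates 1 to 3, without overlap (log2 difference 0.18, SE 0.07; adjusted p = 0.227, limma). It shares 697 exon bases, 24.4% of its length, with Gm15270, which was at means of 2.15 RPKM in Control and 2.38 in Middle, so reads there may be counted for both. Tgif1, a corepressor of Smad2, was at 2.49 ± 0.16 and 2.80 ± 0.47 RPKM (SD, n = 3 each), with overlap. Smad7, the inhibitory Smad that activin induces, was at 0.093 ± 0.036 and 0.126 ± 0.063 RPKM, below the filter.

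Across the 6 libraries the genes whose log2 levels ran most like Inha were Gm15622 (Pearson r = 0.99), Gm42858 (0.99) and 1700012C14Rik (0.98), among 15039 compared. For Inhbb they were Gm15881 (0.997), Gm13008 (0.99) and Hadhb (0.99), a subunit of the mitochondrial trifunctional protein. An r over 0.9 was reached by 50 genes for Inha and by 247 for Inhbb. With 6 libraries and this many genes, values that high are given as a description only, and the libraries also share their depth and GC trend.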

How the data were processed

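Gene expression was measured by RNA sequencing of whole mouse testis in 6 libraries, 3 Control and 3 Middle, grouped by title. The submitters' processing notes name fastp 0.23.0 and the genome build GRCm39; the sources used here do not give the aligner or the counter. Per the file headers, the deposited table holds RPKM values that the authors computed per gene and library, with exon coordinates and gene length.

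Multiplied by gene length, all values were whole multiples of 1 step per library (tolerance 0.001), which gave the reads. Of genes with 1 to 20 reads, 73.3% to 74.7% had an even number, so 2 reads were taken as 1 fragment.

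After a log2(RPKM + 1) transform, the groups were compared with limma 3.58.1 in R 4.3.3 (trended prior) over the 15040 genes whose mean reached 1 RPKM in either group. Fold differences are on the log2(RPKM + 1) scale, which understates the change of low genes. The procedure was tested on simulated data, where false calls ran somewhat above the share aimed for. Ratios were tested by exact permutation over libraries. Members, lists and alternatives were chosen with earlier results of these data known. All members were named, with the 6 and 3 genes of smallest p in 2 lists, and the 3 genes most correlated with each of the 2 most abundant members. Transcript GC content came from GENCODE M21 by symbol (34736 genes). Its trend in each library (loess, span 0.5) was removed as an alternative. Other alternatives were pseudocounts of 0.1 and 0.01, other filters, 3 scalings, limma-voom on genes with at least 10 reads in 3 libraries, array weights, a replicate block, a threshold of 0.1, the median of the Sertoli markers, and leaving out each library. No p was adjusted over the members alone. Of the listed genes, Inhbc, Cripto, Lcn5 and Lcn8 had no row under these symbols and were left out of the list counts. Cripto had a row under its other symbol, Tdgf1, at means of 0.104 RPKM in Control and 0.117 in Middle.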

Additional observations from a re-analysis of the deposited data

How the results depend on the processing

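No member passed in any of 94 refits, and 90 kept their direction; the smallest adjusted p was 0.15 (limma, Fstl3 with array weights). The 4 that turned, none past the threshold, were Inha (0.054 without Middle replicate 3; -0.070 to 0.054 with 1 library left out), Acvr1b (0.014 without Control replicate 2; -0.048 to 0.014) and Acvr2a (0.0497 with the GC trend removed, with or without the replicate block); the cause was not tested. Inhba, Acvr1, Acvr2b and Fst could be fitted only with no filter or with limma-voom. No pathway gene passed in any setting. The count of all genes past the threshold, 8, was 37 with limma-voom, 54 with array weights, 23 at a threshold of 0.1, 0 with no filter and 0 to 3 with 1 library left out (3 without Control replicate 1, 1 without Middle replicate 1).

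With the replicate block it was 0, also with the GC trend removed. The labels do not say whether same-numbered libraries are paired. The deviations of same-numbered libraries correlated at -0.15 to 0.01, and 0 of 6 libraries correlated best with their own number. No shared deviation was seen, which cannot exclude a pairing.

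The log2 ratio of follistatins to β subunits (0.04) ranged from -0.05 to 0.12 with 1 library left out, turning without Control replicate 3 (-0.052) or Middle replicate 2 (-0.032). Inha relative to the median of the Sertoli markers was 0.025, against -0.11 with their mean. The other ratios kept their direction in every setting run. Exact tests could not go below 0.1, or 0.2 with 1 library left out, so they say nothing about stability. Depth limits Inhba and Fst most.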
